A study of Homo sapiens with 24 samples.

Results

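This report concerns the effect of LLY-283 on the RNA of HSJD-DIPG-007 cells after 5 days, taken from the 3 libraries labelled LLY-283 day 5 and the 3 labelled vehicle day 5, which are 6 of the 24 libraries of the series. HSJD-DIPG-007 is an established, patient-derived line of diffuse midline glioma (DMG), a childhood tumour of the brainstem and midline. Its labelled genotype is H3F3A K27M, ACVR1 R206H and PIK3CA MIS, and both treatment groups share this background. LLY-283 inhibits the arginine methyltransferase PRMT5 by binding its SAM pocket. Cells were grown as spheroids in medium with EGF, FGF and PDGF and received LLY-283 at the concentration that inhibits growth by 40% (GI40), or vehicle, on the day after seeding. At day 0, 3 libraries per treatment group gave the difference between the groups before treatment could act, and 1 library per group at each of days 1, 2 and 3 gave the earlier course. The libraries of a group and day are described by the study as technical repeats of 1 line, so the p-values below measure the spread between these libraries and not that between independent cultures.

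PRMT5 places symmetric dimethyl marks on arginines of histones and of the Sm proteins, which form the core of the spliceosome's small nuclear RNPs, and works in a complex with WDR77. Its best known roles are in splicing, in transcriptional repression and in the restraint of p53 activity, and in the developing brain it is linked to the maintenance of neural progenitors. Dividing cells express genes of DNA replication and of mitosis in successive waves, and the p53 pathway lowers both waves through CDKN1A (p21).

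The vehicle libraries of day 5 held between 13835205 and 16691287 counts and the LLY-283 libraries between 17339741 and 19516458, so depth differed between the groups without overlap, and its part in the results was not tested beyond the scaling to library size. The biological coefficient of variation, the spread between libraries of a group beyond counting noise, was 3.6% as a common value over genes. The full spread of a gene also holds counting noise, which is larger at low counts. Between libraries of a group, the chi-square distance per degree of freedom lay from 1.76 to 3.73, against 10.8 to 16.5 between groups, so no library was a copy of another and all pairs across groups were farther apart than any pair within. Expression is given in CPM, the count of a gene scaled to the TMM-normalized size of its library, and changes are log2 ratios of LLY-283 to vehicle with their standard errors (SE). Of 10 glioma markers all were detected, but SOX10 had at most 8 counts in any of the 6 libraries. Scaled to total counts alone, as for all marker sums, the summed level of the 10 glioma markers was 9030 to 9390 CPM under vehicle and 9770 to 9890 under LLY-283. Of 8 microglia markers 5 were at 0 in all 6 libraries. Of 6 endothelial markers VWF, CDH5 and KDR had at most 3 counts and CLDN5 at most 4. TIE1 had 5 to 15 counts, and PECAM1 was detected in every library, at 75 to 138 counts. The library vehicle day 5 repeat 3 stood apart for fibroblast genes, with 499 counts of COL1A2 against 17 and 10 in the other vehicle libraries and 15, 17 and 63 in the LLY-283 libraries. The summed level of 10 fibroblast markers was 221, 231 and 327 CPM under vehicle and 313, 320 and 322 under LLY-283, and the part of such cells in the results was not tested. The counts of genes called at day 5 and in the interaction, and of list members called at day 5, were therefore also taken without that library.

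Of 16491 genes that passed the filter on low counts, 1987 were higher and 2317 lower with LLY-283 at a Benjamini-Hochberg adjusted p under 0.01 in edgeR's quasi-likelihood F test, which is 12% and 14.1% of the genes tested, or 26.1% together. Genes past this threshold are called higher or lower in what follows. The median log2 change of all genes tested was 0.021. The 3 values of one group lay wholly above or below those of the other in 46.7% of genes tested, 23.3% in each direction, and in 4284 of the 4304 genes called. Of the genes called higher 1321 changed by under 0.5 on the log2 scale, 489 by 0.5 to 1 and 177 by 1 or more, with a median of 0.37. Of those called lower 2167 changed by under 0.5, 130 by 0.5 to 1 and only 20 by 1 or more, with a median of -0.25. The genes called lower were also the more abundant, with a median expression of 76.7 CPM against 35.4 CPM. Without vehicle day 5 repeat 3, 1575 genes were called higher and 2002 lower. In a fit of all 22 libraries of days 0 to 7 the numbers fell to 789 and 1253. That fit shares its spread with day 7, where the 2 libraries labelled repeat 2 lie nearer to the opposite treatment group on the day 5 genes. A fit of the 18 libraries of days 0 to 5, added after the data were seen, called 1906 and 2313.

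**Figure D1:**
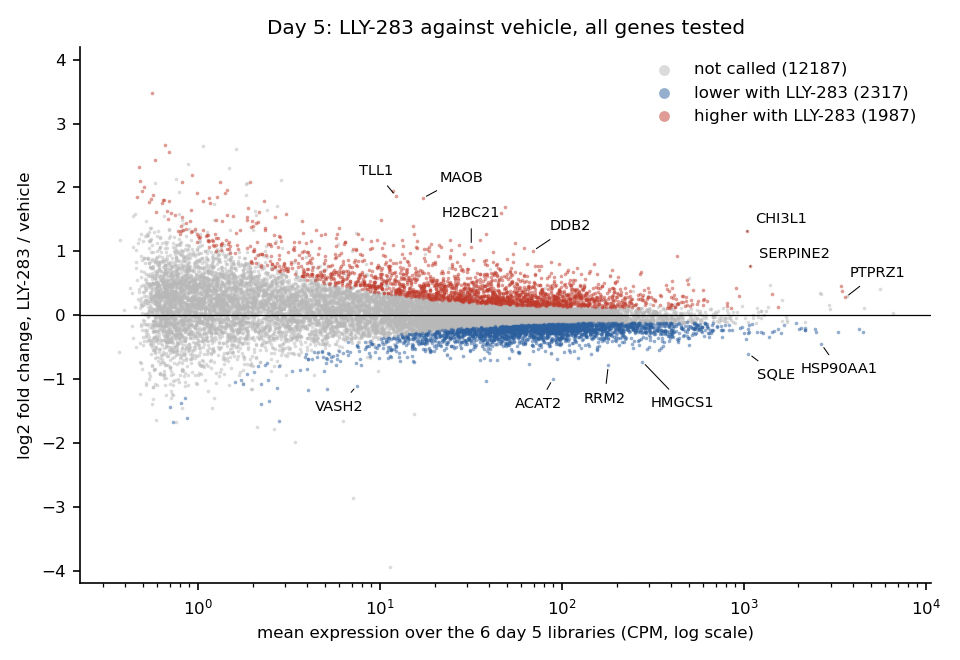
Each point is 1 of the 16491 genes, at its mean expression over the 6 day 5 libraries (CPM, log scale) and its log2 change of LLY-283 over vehicle, with 1987 genes called higher in red, 2317 called lower in blue and the rest in grey. The blue points lie in a narrow band at higher expression, whereas the red points reach larger changes, such as those of TLL1 and MAOB, and 2 genes lie beyond the axis limits.

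The largest increases among genes of at least 5 CPM with separate groups included matrix, adhesion and enzyme genes. Among them were the matrix genes COL9A1 and MATN2, with log2 changes of 1.95 (SE 0.11) and 1.61 (0.056). TLL1 (ENSG00000038295, chromosome 4 of GRCh38, 165873237 to 166104457), a secreted metalloprotease related to BMP1, was at 4.77, 5.18 and 5.97 CPM in the vehicle libraries and 22.2, 18.5 and 17.1 CPM in the LLY-283 libraries. Its lowest treated library lay far above its highest vehicle library, and its log2 change was 1.86 (SE 0.12, adjusted p = 2.2e-12). MAOB, the mitochondrial monoamine oxidase B that is abundant in astrocytes, was at 8.57, 7.05 and 6.92 CPM under vehicle and 27.8, 29.6 and 23.4 under LLY-283 (log2 change 1.83, SE 0.10, adjusted p = 1.8e-12). CHI3L1 (ENSG00000133048), a secreted glycoprotein of astrocytes and gliomas, combined a large change with high expression. It was at 590, 610 and 594 CPM under vehicle and 1410, 1560 and 1500 under LLY-283 (log2 change 1.32, SE 0.038, adjusted p = 8.3e-20). POSTN, ITGA10, PLPPR4, CSGALNACT1 and C4A complete the 10 largest increases, with log2 changes from 1.28 to 1.70. POSTN, which is also a fibroblast marker, was at 19.9, 20.5 and 29.0 CPM in vehicle, the highest of them in repeat 3, and at 79.6, 74.5 and 69.5 under LLY-283. C4A shares nearly all its sequence with C4B, and the reads of both could be split between them.

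Decreases were smaller. VASH2, an angiogenic relative of vasohibin, was at 11.9, 9.13 and 9.47 CPM under vehicle and 5.18, 4.66 and 4.41 under LLY-283, a log2 change of -1.10 (SE 0.13, adjusted p = 2e-07). DERL3, which acts in the disposal of misfolded proteins of the endoplasmic reticulum, changed by -1.16 (SE 0.16) and overlaps exons of SMARCB1 on the other strand. Genes that overlap on opposite strands, such as WDR77, ACAT2, CDKN1A, CDK4, ANLN, PRDX1 and GNL3 below, could share reads, since the use of strand in counting is not stated. OXCT1, the mitochondrial enzyme that commits ketone bodies to oxidation, was at 85.0, 81.9 and 84.2 CPM under vehicle and 48.5, 50.5 and 48.7 under LLY-283 (log2 change -0.77, SE 0.045, adjusted p = 3.4e-13). Each treated library of these 3 genes lay below each vehicle library, as their choice among genes with separate groups required. NGFR, ACAT2, RRM2, SPIN4, RAB39A, CPLX1 and ZSCAN5A make up the rest of the 10 largest decreases, from -1.04 to -0.75. Among genes of at least 100 CPM, the decreases were led by RRM2, HMGCS1, TRIM58, BCYRN1 and SQLE, and the increases by CHI3L1, ABCA1, CCNL2, SERPINE2 and ABCG1. CCNL2, a cyclin-related regulator of splicing, was at 108, 107 and 114 CPM under vehicle and 172, 197 and 205 under LLY-283 (log2 change 0.81, adjusted p = 3.9e-07).

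Genes of the cell cycle fell together and by similar, modest amounts. Of 38 genes of mitosis and the G2 to M transition, all of which passed the filter, 35 were called lower and 0 higher, with a median log2 change of -0.30 and a range from -0.51 to -0.08. Of 41 DNA replication genes 35 were called lower and 0 higher, with a median of -0.32. These shares, 92.1% and 85.4%, compare with 14.1% of all genes called lower and 35.0% of genes at 100 CPM and over. In the fit of all 22 libraries, 21 and 24 were called lower.

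Among replication genes RRM2, the regulated subunit of ribonucleotide reductase, was at 230, 221 and 234 CPM under vehicle and 137, 133 and 127 under LLY-283, and its log2 change of -0.78 (SE 0.038, adjusted p = 9.8e-15) was the largest of the list. POLA1, the catalytic subunit of the primase-bound polymerase, was at 128, 118 and 124 CPM and 87.6, 82.6 and 79.1 CPM (-0.57, SE 0.043). MCM4, a subunit of the replicative helicase, was at 584, 575 and 594 CPM and 432, 416 and 419 CPM (-0.47, SE 0.034). The groups did not overlap for any of these genes, as in nearly all genes called. All 6 subunits MCM2 to MCM7 were called lower, from -0.47 to -0.28. The members not called were GINS3, POLE, PRIM1, LIG1, RPA2 and RPA3, and POLE, at 0.05, was the 1 member above 0.

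Among mitotic genes TOP2A, the topoisomerase that untangles sister chromatids, was at 417, 392 and 432 CPM under vehicle and 301, 286 and 286 under LLY-283 (log2 change -0.51, SE 0.038, adjusted p = 3.8e-11). MYBL2, a transcription factor that activates mitotic genes, was at 193, 184 and 172 CPM and 132, 128 and 129 CPM (-0.50, SE 0.040). ANLN, a scaffold of the cytokinetic ring, was at 161, 160 and 160 CPM and 121, 117 and 115 CPM (-0.45, SE 0.037). FOXM1 (-0.33), PLK1 (-0.37), CDK1 (-0.29), CCNB1 (-0.27) and MKI67 (-0.27), named after their values were seen, lay near the median of the list. TTK, NUF2 and CDC25C were not called.

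Many mitotic promoters share short elements that the test of expression did not use. The cell cycle homology region, TTTGAA, is bound by complexes that hold mitotic genes silent outside G2, and the CCAAT box by the factor NF-Y. Promoters were taken from RefSeq (GRCh38.p14) as 250 bases before to 50 bases after each start, and 11392 of the 16491 genes tested had one. Both motifs were searched on both strands. TTTGAA or its complement TTCAAA occurred in 22 of 32 mitotic promoters (68.8%), in 1 of 34 replication promoters (2.94%) and in 10.1% of the 11392. CCAAT or its complement ATTGG occurred in 24 of the 32 (75%), in 19 of the 34 (55.9%) and in 36.8% of the 11392. Over all called genes, TTTGAA occurred in 11.4% of promoters of genes called lower and 9.93% of those of genes called higher, and CCAAT in 40.8% and 35.5%. Within the 150 bases before the start, 13 of the 32 mitotic promoters held both motifs. The following 5 were chosen from those 13, after their sequences were seen, for a CCAAT box upstream of the cell cycle element, each as the 150 bases before the start, read 5′ to 3′ on the gene's strand, with both motifs in capitals.
PLK1 (chr16:23678739-23678888, plus strand): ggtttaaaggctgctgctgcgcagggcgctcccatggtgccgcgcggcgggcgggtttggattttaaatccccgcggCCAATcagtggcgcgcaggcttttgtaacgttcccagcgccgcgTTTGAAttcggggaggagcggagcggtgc
KIF4A (chrX:70289954-70290103, plus strand): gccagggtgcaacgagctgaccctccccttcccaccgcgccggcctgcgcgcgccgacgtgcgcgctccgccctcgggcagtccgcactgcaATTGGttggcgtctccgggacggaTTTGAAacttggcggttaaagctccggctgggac
KIF23 (chr15:69414199-69414348, plus strand): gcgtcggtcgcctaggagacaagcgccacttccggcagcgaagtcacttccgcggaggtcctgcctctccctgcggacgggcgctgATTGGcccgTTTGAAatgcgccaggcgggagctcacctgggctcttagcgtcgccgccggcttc
CCNB2 (chr15:59104996-59105145, plus strand): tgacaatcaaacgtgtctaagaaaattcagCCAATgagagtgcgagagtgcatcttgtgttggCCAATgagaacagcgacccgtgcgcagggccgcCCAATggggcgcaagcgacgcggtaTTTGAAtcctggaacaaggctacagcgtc
KIF11 (chr10:92592980-92593129, plus strand): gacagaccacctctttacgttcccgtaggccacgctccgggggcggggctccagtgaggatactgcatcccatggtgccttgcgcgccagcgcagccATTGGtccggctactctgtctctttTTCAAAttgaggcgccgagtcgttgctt

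CCNB2 carried 3 CCAAT boxes and the others 1. The order was not shared by all 13, since in CDC20, DLGAP5, ASPM, MKI67 and ECT2 the cell cycle element lay upstream of the CCAAT box nearest to the start, as in CDC20 at -65 and -55. The element began at position -29 in PLK1 and CCNB2, -28 in KIF11, -34 in KIF4A and -55 in KIF23, counted from the first transcribed base. The log2 changes of these genes were -0.37 for PLK1, -0.38 for KIF4A, -0.30 for KIF23, -0.31 for KIF11 and -0.16 for CCNB2. All 5 were called lower, as were 35 of the 38 mitosis genes tested. Mitosis genes with neither motif in these 150 bases also fell, namely MYBL2 (-0.50), CENPE (-0.48), MAD2L1 (-0.37), AURKB (-0.33), NDC80 (-0.32) and KIF2C (-0.19). CDC25C and NUF2, also with neither, were not called. A link between motif and change was not tested. A match describes these letters in this window and is not evidence of binding.

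DNA repair genes followed the cycle genes in part. Of 34 genes of homologous recombination, mismatch repair and the Fanconi pathway 22 were called lower and 1 higher, with a median of -0.20. Of all genes tested 14.1% were called lower. UBE2T, the ubiquitin-conjugating enzyme of the Fanconi pathway, was at 113, 103 and 104 CPM under vehicle and 81.9, 77.1 and 76.5 under LLY-283 (-0.45, SE 0.044). EXO1 (-0.37), which acts in mismatch repair, also fell. The exception was ATM, the kinase that senses double-strand breaks, at 124, 114 and 122 CPM under vehicle and 142, 156 and 160 under LLY-283 (0.35, SE 0.045, adjusted p = 1.5e-06). BRCA2, ATR and FANCA were not called and lay between -0.03 and 0.07.

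Targets of p53 rose. Of 39 listed genes 36 passed the filter, and 23 were called higher and 0 lower, with a median log2 change of 0.28, where 12% of all genes were called higher. The fit of all 22 libraries called 8 of them. DDB2 (ENSG00000134574), a damage-recognition protein of nucleotide excision repair, was at 45.2, 48.1 and 45.2 CPM under vehicle and 87.3, 98.4 and 92.5 under LLY-283 (log2 change 1.01, SE 0.050, adjusted p = 1.4e-14). ZMAT3, an RNA-binding regulator of splicing, was at 118, 121 and 128 CPM and 193, 196 and 183 CPM (0.64, SE 0.040). CDKN1A, the p21 inhibitor of cyclin-dependent kinases, was at 161, 163 and 166 CPM and 237, 232 and 224 CPM (0.50, SE 0.036, adjusted p = 2.4e-11). The groups were separate for all 3 genes, as in nearly all genes called. EDA2R (1.04), PLK2 (0.90), PHLDA3 (0.71) and SPATA18 (0.69), singled out after their values were seen, were also among the larger increases. The response was uneven, since PPM1D (0.03), TRIAP1 (0.08), AEN (0.10), TP53I3 (-0.13) and FAS (0.15) were not called. MDM2, a target that limits the pathway by feedback, was called higher at 0.25.

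Regulators of apoptosis and of the G1 phase changed in both directions, where 12% of all genes were called higher and 14.1% lower. In the BCL2 family BAX (0.47), BCL2L11 (0.43), BMF (0.65) and HRK (0.41), which favour cell death, were called higher and BCL2 (-0.44), which opposes it, was called lower, among 14 genes tested. BAX, also on the p53 list, was at 68.6, 71.8 and 67.5 CPM under vehicle and 96.0, 99.1 and 93.1 under LLY-283. The 4 family members called higher became 2 without LLY-283 day 5 repeat 1 or without vehicle day 5 repeat 1. BBC3, MCL1 and BCL2L1 were not called. Of 18 genes of D and E cyclins, their kinases and inhibitors, 3 were called higher and 7 lower. CCND1, cyclin D1, was at 383, 365 and 362 CPM under vehicle and 439, 445 and 458 under LLY-283 (0.27, SE 0.035), whereas its partner kinase CDK4 was at 191, 192 and 181 CPM and 160, 160 and 154 CPM (-0.25, SE 0.037). The third gene called higher, beside CCND1 and CDKN1A, was CDKN2B (0.55), an inhibitor of CDK4 and CDK6. The 7 called lower became 3 if repeat 3 of the LLY-283 libraries was left out, and 4 for repeat 2 of LLY-283 or repeat 1 of vehicle.

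Replication-dependent histone genes went against the fall of the replication genes. Their transcripts normally end in a stem-loop without a poly(A) tail, and these libraries were made from poly(A) RNA, so only the polyadenylated part of them was measured. Of 30 listed genes 13 passed the filter, and 6 were called higher and 0 lower, where 12% of all genes were called higher. H2BC21 was at 20.2, 19.6 and 21.9 CPM under vehicle and 42.8, 43.4 and 43.2 under LLY-283 (log2 change 1.07, SE 0.061, adjusted p = 1.9e-13). H1-2, a linker histone, was at 16.5, 17 and 17.9 CPM and 33.7, 33.1 and 28.8 CPM (0.90, SE 0.074). H2BC5, at 11.6, 11.5 and 12.2 CPM and 19.4, 21.2 and 18.3 CPM (0.74, SE 0.086), H3C10, H4C8 and H2AC6 complete the 6. The groups did not overlap for the 3 genes given by library, as in nearly all genes called. H4C3, near 1 CPM, was the 1 tested member below 0 and was not called. Histone genes of a cluster are similar in sequence, so reads of close copies could be split. The fit of all 22 libraries called 2 of the 6.

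**Figure D2:**
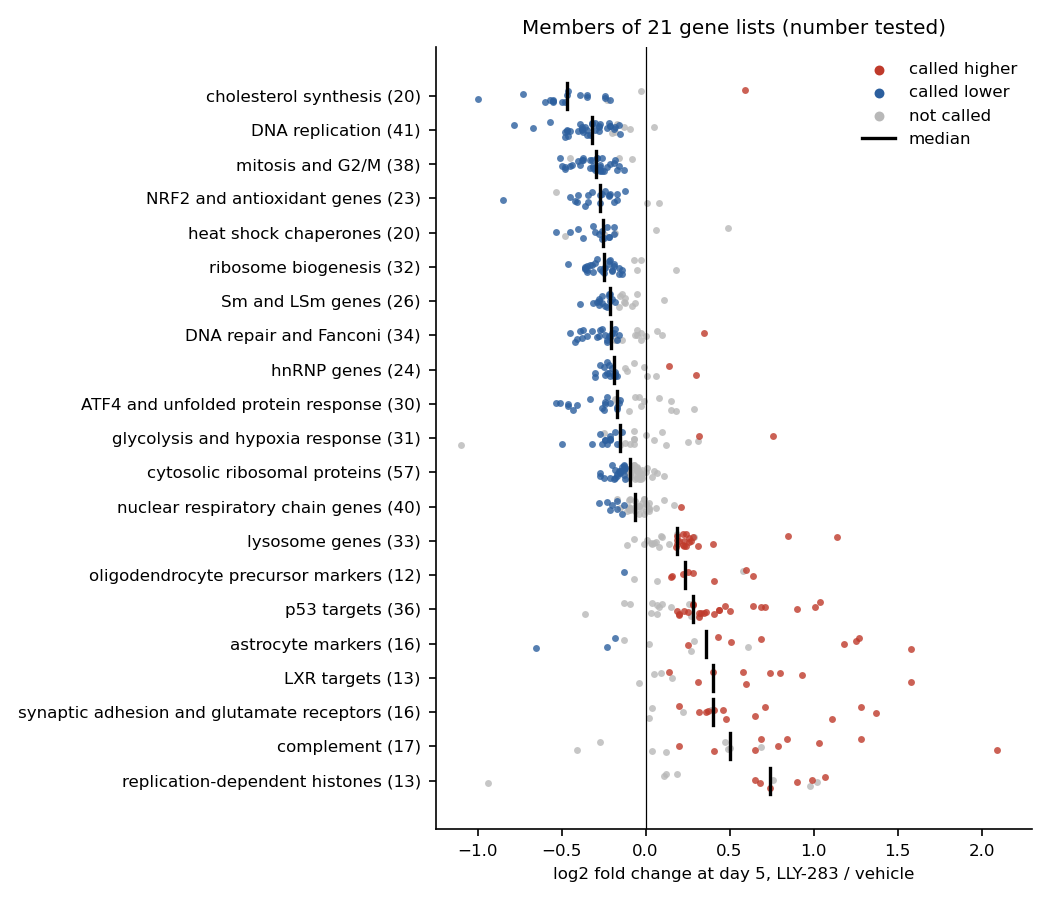
Each point is a tested member of 1 of 21 gene lists, at its log2 change of LLY-283 over vehicle at day 5, with members called higher in red, called lower in blue and not called in grey, and a black bar at the list's median. Medians run from -0.47 for cholesterol synthesis to 0.74 for replication-dependent histones, and the lists from cholesterol synthesis to the hnRNP genes lie mostly to the left of 0.

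Genes of cell growth were lower. Of 32 ribosome biogenesis genes, which make and process ribosomal RNA, 28 were called lower and 0 higher (median -0.24). GNL3, nucleostemin, was at 247, 234 and 239 CPM under vehicle and 174, 176 and 173 under LLY-283 (log2 change -0.46, SE 0.036, adjusted p = 8e-11). DDX21 (-0.36), a nucleolar helicase, and NOP56 (-0.32), a core protein of snoRNPs, followed. MYC, which drives these genes in many cells, was at 460, 435 and 454 CPM under vehicle and 359, 355 and 358 under LLY-283 (-0.33, SE 0.034), whereas MXD4, an antagonist that competes for MAX, rose by 0.41 (SE 0.046). Cytosolic ribosomal protein genes changed less, with a median of -0.09 and 22 of 57 called lower. That share, 38.6%, compares with 14.1% of all genes tested and 35.0% of all genes at 100 CPM and over. The count of 22 rests on single libraries. With 1 library omitted it was 9 (LLY-283 repeat 2), 8 (LLY-283 repeat 3), 12 (vehicle repeat 1) 14 (vehicle repeat 2), 17 (vehicle repeat 3) or 32 (LLY-283 repeat 1), and in the fit of all 22 libraries it was 5.

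Genes of RNA processing, where PRMT5 acts, were lower by small amounts. The share called lower was 14.1% over all genes tested and 35.0% at 100 CPM and over. PRMT5 itself was at 89.4, 91.8 and 86.3 CPM under vehicle and 83.0, 82.1 and 82.1 under LLY-283, and was not called (adjusted p = 0.031). Its partner WDR77 was at 128, 132 and 123 CPM and 92.4, 94.2 and 91.8 CPM (log2 change -0.46, SE 0.040, adjusted p = 4.8e-10), and in all 6 of 12 genes of the PRMT5 complex and its direct partners were called lower. Of 26 Sm and LSm genes 16 were called lower and 0 higher (median -0.21), among them SNRPD1 (-0.31), SNRPD3 (-0.28) and SNRPB (-0.24), whose products carry the PRMT5 marks. Of 24 hnRNP genes 16 were called lower and 2 higher (median -0.19), and the 2 became 0 without vehicle repeat 1 and 1 without any other library but LLY-283 repeat 3. The SR proteins and their kinases were divided, with 7 of 19 called lower, led by SRSF1 (-0.32) and SRPK1 (-0.28), and 4 called higher. CLK1, CLK2 and CLK4, kinases that phosphorylate SR proteins, were 3 of those 4, and CLK1 was at 33.0, 33.4 and 34.2 CPM under vehicle and 42.4, 42.2 and 47 under LLY-283 (0.39, SE 0.058). Among 9 other arginine methyltransferases CARM1 (-0.30), PRMT1 (-0.25) and PRMT3 (-0.21) were called lower, and PRMT3 lost its call when any of LLY-283 repeats 1 or 2 or vehicle repeats 1 or 3 of day 5 was left out (highest adjusted p = 0.071).

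Stress and redox genes fell as well, where 14.1% of all genes and 35.0% of genes at 100 CPM and over were called lower. Of 23 genes of the NRF2 and antioxidant list 20 were called lower and 0 higher, with a median of -0.27. NQO1, a quinone reductase, was at 417, 420 and 411 CPM under vehicle and 323, 306 and 302 under LLY-283 (log2 change -0.42, SE 0.035, adjusted p = 2.6e-10). PRDX1 (-0.40), a peroxiredoxin, and TKT (-0.34), transketolase of the pentose phosphate pathway, were lower, while NFE2L2, which encodes NRF2, was at 0.08 and not called. Of 20 heat shock chaperones 15 were called lower and 0 higher (median -0.26). HSP90AA1 was at 3140, 3010 and 3120 CPM and 2410, 2190 and 2160 CPM (-0.45, SE 0.040), and HSPB1 at 299, 296 and 301 CPM and 236, 222 and 219 CPM (-0.40, SE 0.036). HSPA1B, at -0.53, is nearly identical to HSPA1A, and their reads could be split. Of 30 genes of the ATF4 and unfolded protein responses 17 were called lower and 0 higher (median -0.17). They included PHGDH and MTHFD2 of serine and folate metabolism (-0.51 and -0.46) and SLC7A5, the large neutral amino acid transporter, at 366, 338 and 345 CPM under vehicle and 244, 240 and 241 under LLY-283 (-0.53, SE 0.036, adjusted p = 5.5e-12). DDIT3 (-0.17) and ATF3 (0.18) were not called.

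Among metabolic genes, those of the methionine cycle and polyamines are of interest because PRMT5 uses S-adenosylmethionine. Of 18 genes 10 were called lower and 3 higher, where 14.1% and 12% of all genes were. ODC1, which starts polyamine synthesis, was at 303, 288 and 279 CPM under vehicle and 212, 200 and 196 under LLY-283 (-0.52, SE 0.039, adjusted p = 4.1e-11), and SRM (-0.36), AMD1 (-0.28) and MAT2A (-0.30) also fell. SAT1, which acetylates polyamines for export, rose by 0.34 (SE 0.042). MTAP, which salvages methylthioadenosine, was expressed at 70.3 to 71.7 CPM under vehicle and 50 to 55.0 under LLY-283 (-0.44). Of 31 glycolysis and hypoxia genes 14 were called lower, led by LDHA (-0.26), PGK1 (-0.24) and ALDOA (-0.24), and ADM and PFKFB3 were called higher, 1 of them when vehicle repeat 1 was left out. Nuclear genes of the respiratory chain had a median of -0.06, and 8 of 40 were called lower. The share called lower was 14.1% of all genes, 20.8% of those at 20 to 100 CPM and 35.0% at 100 CPM and over. With 1 library left out the 8 became 3 to 12 (3 without LLY-283 repeat 2, 4 without repeat 3 and 12 without repeat 1). All 13 mitochondrially encoded genes lay above 0 (median 0.30), and 4 were called higher. MT-CO2 was at 3010, 2890 and 2770 CPM under vehicle and 3550, 4090 and 4250 under LLY-283, with all 3 treated libraries above the vehicle libraries (0.46, SE 0.065, adjusted p = 0.00049). Such separation held for nearly all genes called. The count of 4 became 9 without LLY-283 day 5 repeat 1 and 2 without vehicle day 5 repeat 1.

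Sterol genes moved in opposite directions by function. Cholesterol synthesis had 17 of 20 genes called lower, where 14.1% of all genes and 35.0% of genes at 100 CPM and over were. ACAT2, which makes acetoacetyl-CoA, was at 120, 123 and 114 CPM under vehicle and 58.7, 62.2 and 57.7 under LLY-283, and SQLE, squalene epoxidase, at 1280, 1260 and 1300 CPM and 876, 834 and 823 CPM. HMGCS1, HMG-CoA synthase, was at 342, 342 and 352 CPM and 220, 204 and 203 CPM. The treated libraries of all 3 genes lay below the vehicle libraries, a separation found in nearly all genes called. TM7SF2, a sterol reductase, was the 1 gene called higher (0.59, SE 0.14) and lost its call without vehicle repeat 2. None of the 17 was called in the fit of all 22 libraries. Of 13 LXR targets 9 were called higher and 0 lower, beside 12% of all genes called higher. The 9 targets became 2 in that fit. The sterol exporters among them rose, with ABCA1 at 304, 299 and 286 CPM under vehicle and 559, 563 and 575 under LLY-283 (0.93, SE 0.035, adjusted p = 2.4e-17) and ABCG1 at 92.2, 95.2 and 87.0 CPM and 152, 155 and 150 CPM (0.74). SREBF1, an LXR target that controls fatty acid synthesis, rose by 0.60 (SE 0.039). All 3 genes lost their calls in the fit of all 22 libraries, and SREBF2, which controls cholesterol synthesis, was at 0.03. Fatty acid genes were divided, with FADS1 (-0.33), ACSS2 (-0.43) and 4 others called lower and SCD, SCD5 (0.42) and GPAM higher among 15, of which 1 was higher without LLY-283 repeat 2 or vehicle repeat 2. In RefSeq promoters, a CCAAT box occurred in 12 of 15 cholesterol genes (80.0%), against 36.8% of all promoters. The string TCACNCCAC, searched as the sterol regulatory element, occurred in 0 of 15, against 1.11% of all promoters. At that share, 0 of 15 cannot tell these promoters from others, and other forms of the element were not searched. As for the mitotic promoters, a match is not evidence of binding. Within 150 bases before the start, TM7SF2, called higher, and MVK, not called, also held a CCAAT box. IDI1 and CYP51A1, called lower, and PMVK, not called, held none there. The following 2, each 150 bases before the start with CCAAT or ATTGG in capitals, show such matches in 2 of the genes called lower.
HMGCS1 (chr5:43313413-43313562, minus strand): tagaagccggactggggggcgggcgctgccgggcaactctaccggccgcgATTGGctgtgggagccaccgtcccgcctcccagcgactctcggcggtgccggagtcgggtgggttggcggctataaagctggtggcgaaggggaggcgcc
MVD (chr16:88663092-88663241, minus strand): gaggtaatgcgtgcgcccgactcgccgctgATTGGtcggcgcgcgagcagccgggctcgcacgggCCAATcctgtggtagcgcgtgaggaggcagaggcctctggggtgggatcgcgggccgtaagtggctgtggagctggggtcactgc

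**Figure D3:**
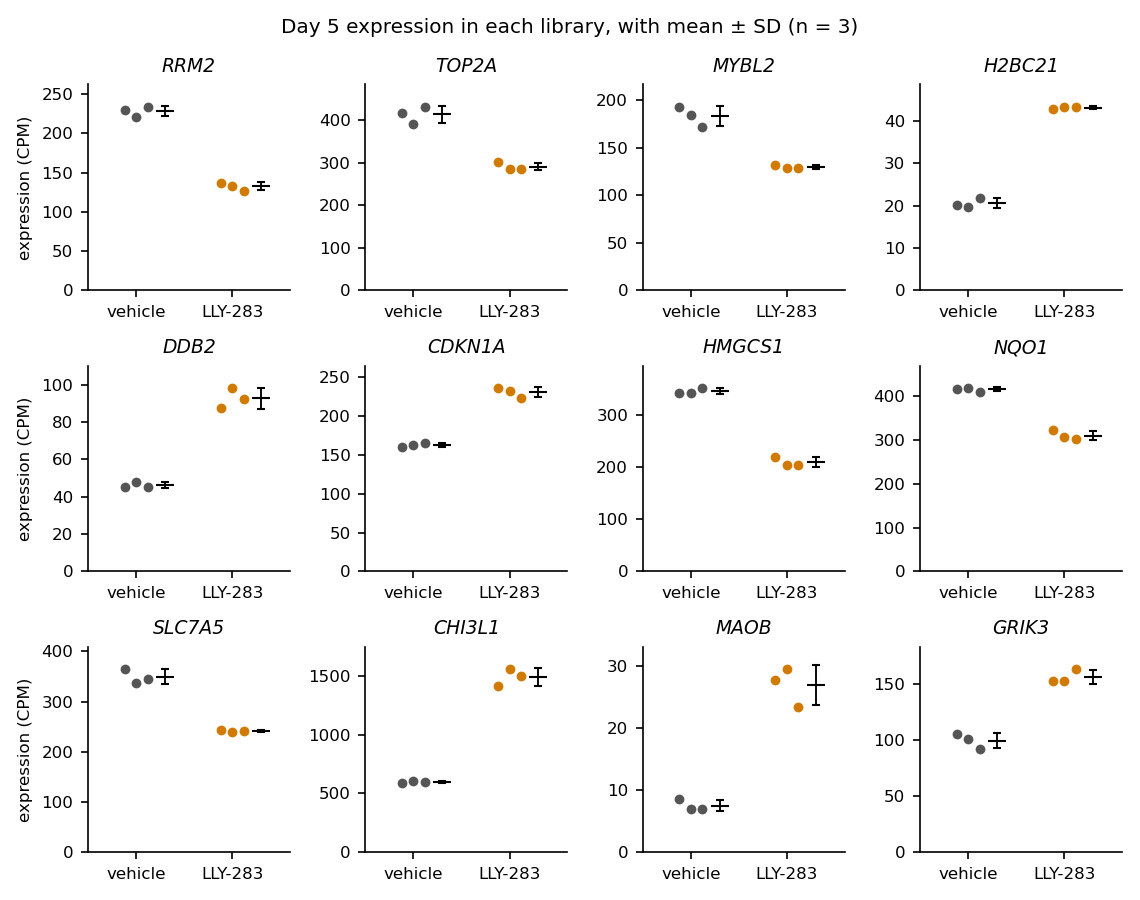
Expression of 12 genes in each day 5 library (CPM, axes from 0), with vehicle in grey, LLY-283 in orange and the mean ± SD (n = 3) in black. RRM2, TOP2A, MYBL2, HMGCS1, NQO1 and SLC7A5 are lower and H2BC21, DDB2, CDKN1A, CHI3L1, MAOB and GRIK3 higher with LLY-283. The 2 groups do not overlap for any of the 12 genes, which follows from their choice among called genes. Groups were separate in 4284 of the 4304 genes called and in 46.7% of genes tested.

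Neural genes rose in several classes, where 12% of all genes were called higher. Of 26 synaptic adhesion and glutamate receptor genes 16 passed the filter, and 12 were called higher and 0 lower (median 0.40). GRIK3, a kainate receptor subunit, was at 106, 101 and 92.3 CPM under vehicle and 153, 153 and 164 under LLY-283 (log2 change 0.65, SE 0.045, adjusted p = 8.1e-11). GRM3, a metabotropic glutamate receptor, was at 36.4, 33.9 and 33.3 CPM and 60.3, 53 and 56.4 CPM (0.71, SE 0.057), and GRIA2, an AMPA receptor subunit, at 111, 112 and 110 CPM and 149, 159 and 156 CPM (0.48, SE 0.039). The groups were separate for all 3, as in nearly all genes called. Among astrocyte genes AGT, angiotensinogen, was at 23.4, 21.3 and 22.8 CPM under vehicle and 56.2, 57.2 and 49.1 under LLY-283 (1.27, SE 0.065, adjusted p = 4e-14), and CLU, clusterin, at 111, 109 and 108 CPM and 179, 172 and 175 CPM (0.69). The astrocyte genes SLC1A3 (-0.18), GJA1 (-0.23) and ID3 (-0.65) went the other way and were called lower, among 16 tested. Of the precursor genes PDGFRA was at 154 to 159 CPM under vehicle and 202 to 212 under LLY-283 (called higher, 0.41), while OLIG2 was called lower at -0.13 but not without repeat 2 or 3 of LLY-283 or repeat 3 of vehicle. Of 10 tested myelin genes 3 were called higher. Of 11 neuronal genes tested 5 were called higher and 1 lower (median 0.31). GAD1 (0.77), SYT1 (0.36) and MAP2 (0.31) rose and TUBB3 fell (-0.23). DCX, at low counts, had 8, 10 and 7 under vehicle and 43, 28 and 41 under LLY-283. Of 14 neural stem and glioma genes 5 were called higher and 1 lower, with DLL1 (0.84), a Notch ligand, and FABP7 (0.36), a fatty acid binding protein of radial glia, among the former. DLL1 did not change in the study's RT-qPCR of this line. The 1 called lower, NES, the intermediate filament of neural stem cells, was at 2380, 2330 and 2340 CPM and 1960, 1990 and 2040 CPM (-0.24, SE 0.035), while SOX2 was not called (0.05). The level of these genes could change within cells or with the mix of cells, which bulk RNA cannot tell apart.

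Complement and lysosome genes rose too, where 12% of all genes were called higher. Of 17 complement genes 9 were called higher and 0 lower (median 0.50). CFI, a protease that cleaves C3b, was low, at 0.489 to 1.09 CPM under vehicle and 2.77 to 3.44 under LLY-283, and had the largest change of the list (2.09, SE 0.28). The microglial markers C1QA and C1QB were at 0 in all 6 libraries. Of 33 lysosome genes 19 were called higher and 0 lower (median 0.19), with IDUA (0.85), ATP6AP1 (0.31) and CTSB (0.26) of smallest p and TFEB, a transcription factor of lysosome genes, at 1.14 (SE 0.18). Calls of small changes depended on the test here, since 12 of the 19 remained in number without vehicle day 5 repeat 1, 10 with DESeq2 and 6 in the fit of all 22 libraries. Interferon genes changed little, with 6 of 29 called higher and 1 lower (0 to 2 lower with 1 library left out), although IFIT2 was at 72.1, 71.8 and 71.8 CPM under vehicle and 115, 113 and 101 under LLY-283 (0.61, SE 0.047). Of 17 genes of MHC class I presentation 7 were called higher and 2 lower (1 lower without LLY-283 repeat 2 or vehicle repeat 1), and HLA-B rose by 0.52, with the caution that HLA genes share reads. The fit of all 22 libraries called 0 of the 7.

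Signalling genes were divided, whereas more collagens and other matrix proteins were called higher than lower. Of all genes tested 12% were called higher and 14.1% lower. Among receptor tyrosine kinases and PDGF ligands, 9 of 21 were called higher and 2 lower. DDR1, a collagen receptor, was at 48.6, 51.5 and 47.4 CPM under vehicle and 74.2, 74.0 and 76.8 under LLY-283 (0.61, SE 0.048), against decreases of FGFR4 (-0.88) and PDGFB (-0.58). PTN, pleiotrophin, was at 775, 736 and 807 CPM and 1060, 1000 and 1060 CPM (0.43, SE 0.038), in the opposite direction to its relative MDK (-0.67). TNFRSF1B, TNF receptor 2, fell (-0.70, SE 0.057), while TNFRSF10B, the death receptor DR5 and a p53 target, rose (0.41). In the study's RT-qPCR of this line MATN2, APOE and ABCG1 rose and HMGCS1, ACAT2, NGFR and MDK fell, the same directions as here. TNFRSF1B, DLL1 and EPHB2 did not change in that assay. Of 25 collagens 11 were called higher and 1 lower (0 lower without LLY-283 repeat 2), among the former COL4A1 of basement membranes, at 88.2, 85.1 and 87.3 CPM and 125, 114 and 121 CPM (0.47), and COL6A2 (0.55). COL1A1 and COL1A2 (-1.55 and -2.86) were not called, and their vehicle values were set by repeat 3. Of 37 other matrix proteins 16 were called higher and 3 lower (median 0.16). Matrix proteases and their inhibitors had 6 of 24 called higher and 1 lower (0 lower without LLY-283 repeat 2). TNC, tenascin C, was at 216, 209 and 201 CPM and 329, 328 and 349 CPM (0.68, SE 0.038, adjusted p = 8.5e-14), and NCAN, neurocan, at 408, 397 and 389 CPM and 603, 588 and 561 CPM (0.55). Of 27 integrin and focal adhesion genes 8 were called higher and 4 lower (7 lower without LLY-283 repeat 1), with a median of -0.02. The integrin genes ITGA6 (0.67) and ITGB8 (0.59) rose, and ITGA5 (-0.28) and FERMT1 (-0.47), a kindlin that activates integrins, fell. Of 25 genes of fascin, LIM kinases and CDC42 effectors 13 were called lower, but this became 7 or 8 when any library other than repeat 1 of LLY-283 was left out.

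Before treatment, 3 of 17780 genes were called between the groups of day 0 (0.0169%), and DESeq2 called 4. The difference between the treatment effects of days 5 and 0 was tested as an interaction over the 12 libraries of both days. It was called for 1245 genes in the higher and 1497 in the lower direction of 18369 tested (6.78% and 8.15%, together 14.9%). Of the 1987 genes called higher at day 5, 1171 were also called in the interaction in that direction, as were 1464 of the 2317 called lower. Both tests use the same day 5 libraries, so this overlap is not separate support. By list, 28 of 38 mitosis genes, 27 of 41 replication genes, 23 of 32 ribosome biogenesis genes, 16 of 23 NRF2 genes and 13 of 20 heat shock genes were called lower in the interaction. In the higher direction it called 19 of 36 p53 targets, 5 of 13 histone genes, 9 of 16 synaptic genes and 7 of 17 complement genes.

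On the days between, which share no library with day 5, the genes called at day 5 moved gradually. The genes called higher had a mean log2 difference, LLY-283 less vehicle, of 0.006, 0.033, 0.114 and 0.288 on days 0, 1, 2 and 3, against 0.454 on day 5. For those called lower the values were 0.029, -0.066, -0.102 and -0.259, against -0.312. The 9 pairs of day 0 libraries lay between -0.019 and 0.023 for the former and between -0.017 and 0.093 for the latter. At day 3, 87.9% of the genes called higher lay above 0 and 94.7% of those called lower lay below, where 46.6% of all genes tested lay above 0. Days 1, 2 and 3 have 1 library per group, so these differences have no replicate check.

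The lists differed in timing. Mitosis genes had a median difference of -0.09, -0.30 and -0.32 on days 2, 3 and 5, and ribosome biogenesis genes of -0.10, -0.31 and -0.27, so that the values of day 3 were already close to those of day 5. NRF2 genes were at -0.16, -0.36 and -0.29. The p53 targets as a list were at 0.02 on days 1, 2 and 3 and at 0.25 on day 5, and lysosome genes at -0.01 on days 2 and 3 and at 0.16 on day 5. Single p53 targets differed in course. DDB2 was at 36.4 CPM under vehicle and 60.3 under LLY-283 at day 3, whereas CDKN1A was at 149 and 146 CPM on that day. RRM2 was at 271 and 231 CPM at day 2 and 270 and 169 CPM at day 3, and CHI3L1 at 822 and 921 CPM and 608 and 1270 CPM. MAOB at day 0 was at 1.16 to 1.46 CPM under vehicle and lower, at 0.688 to 0.848 CPM, under LLY-283. It rose over time in both groups and reached 3.86 CPM under vehicle and 9.66 under LLY-283 at day 3. Values of these days were scaled over all 24 libraries.

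**Figure D4:**
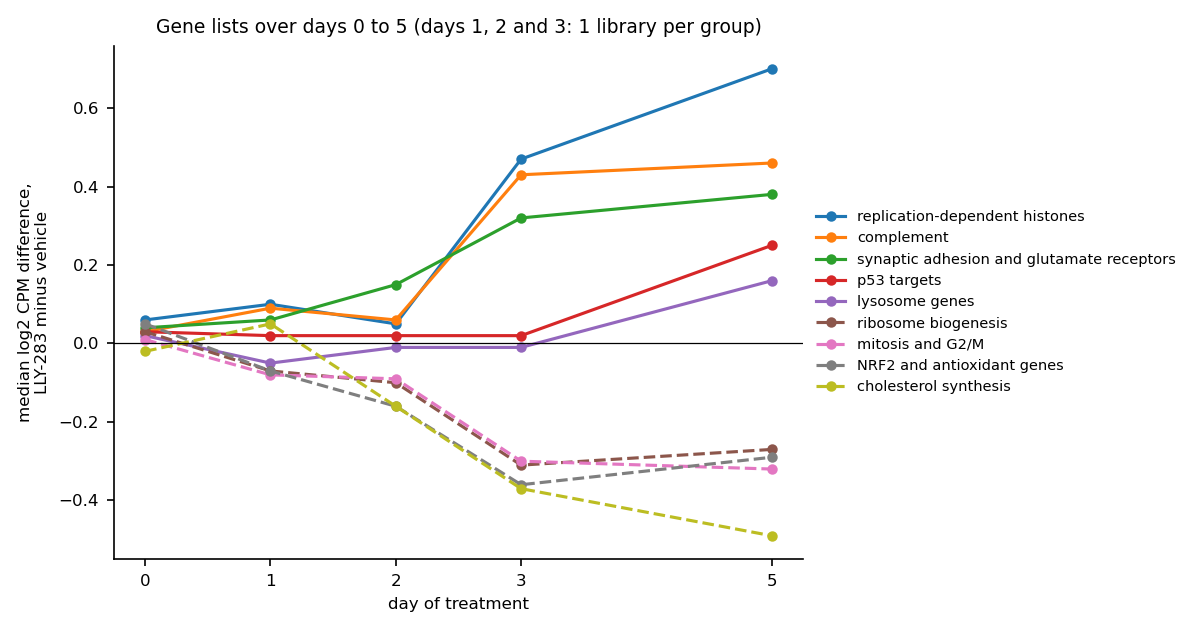
Median difference in log2 CPM, LLY-283 less vehicle, of 9 gene lists at days 0, 1, 2, 3 and 5 of treatment, with solid lines for lists that were higher at day 5 and dashed lines for those that were lower. Mitosis, ribosome biogenesis and NRF2 lists reach about their day 5 values by day 3, whereas the p53 target and lysosome lists leave 0 between days 3 and 5, and days 1 to 3 rest on 1 library per group.

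Genes called at day 5 differed by class. Of 13067 protein-coding genes 13.5% were called higher and 17.4% lower, and of 2202 lncRNAs 6.54% and 0.863%, with medians of 0.00 and 0.17. Calls depend on expression, since 2.19% and 0.274% of genes under 1 CPM were called higher and lower, against 15.1% and 35.0% of genes at 100 CPM and over. Medians also depended on expression. Under 1 CPM and at 1 to 5 CPM they were 0.25 and 0.16 for protein-coding genes and 0.18 and 0.19 for lncRNAs. At 1 to 5 CPM, 4.91% of 1079 lncRNAs were called higher and 0.371% lower, against 7.33% and 1.43% of 1609 protein-coding genes. Among lncRNAs of 5 to 20 CPM, 14.9% were called higher and 2.22% lower, against 14.5% and 6.55% of protein-coding genes of the same expression. At 20 to 100 CPM the shares called higher were 30.6% of 72 lncRNAs and 15.5% of 5676 protein-coding genes, and those called lower 6.94% and 21.1%. Protein-coding genes with many introns were more often called higher. With 20 or more introns in the canonical transcript 22.9% were called higher and 14.4% lower, against 9.06% and 16.5% of those with 1 to 3 introns. By exonic length the share called higher rose from 7.62% in the shortest quartile to 20.2% in the longest, and the share called lower fell from 21.3% to 13.7%. Length, intron number and counts per gene rise together, and these shares were not tested against each other.

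**Figure D5:**
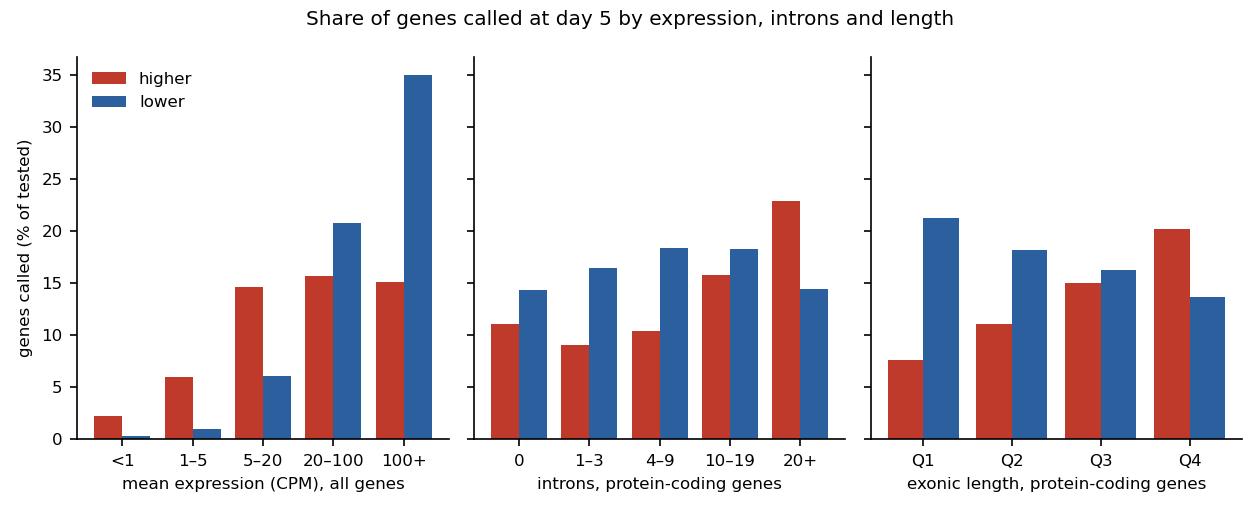
Percent of tested genes called higher (red) and lower (blue) with LLY-283 at day 5, by mean expression in CPM for all genes, and by the number of introns and the quartile of exonic length (Q1 shortest, Q4 longest) for protein-coding genes. The share called lower reaches 35.0% at 100 CPM and over, and the share called higher reaches 22.9% at 20 or more introns and 20.2% in the longest quartile.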

How the data were processed

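Poly(A) RNA of HSJD-DIPG-007 cells was sequenced as paired ends. The authors quantified trimmed reads on hg38 transcripts with kallisto. The deposited table holds their estimated count of each gene in 24 libraries, rounded and without normalization. The library kit was directional, but the kallisto version, the annotation and the use of strand in counting are not given in the sources used here. Reads from sequence shared by overlapping genes could therefore be split between them. Of 58676 gene identifiers 58207 were matched to symbols (GENCODE annotation of GRCh38).

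From these counts, day 5 (3 libraries against 3), day 0 (3 against 3) and the interaction of treatment with day (12 libraries) were each fitted with edgeR 4.0.16 in R 4.3.3, with TMM normalization, edgeR's filter on low counts, its robust quasi-likelihood F test and Benjamini-Hochberg adjusted p-values over all genes tested. Genes were called at an adjusted p under 0.01. Standard errors are the log2 fold change divided by the root of F. CPM values carry the TMM scaling, and log2 differences over days use a prior count of 2. Counts limit precision most in genes under 1 CPM. On simulated counts for day 5 (16159 genes), 94% of 100 genes with a log2 change of 1 were recovered and 76% of 100 with a change of 0.5. The changed genes were drawn only from those above a minimum mean count, and all genes shared the same dispersion. These shares therefore do not hold for genes of low counts.

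The members, gene lists and tests were chosen with earlier results of these data known, and lists came from general knowledge. Lists are described by counts and medians without a test. The rule for named genes took the 10 largest increases and decreases of at least 5 CPM and the 5 of at least 100 CPM among called genes with separate groups, the 3 called members of smallest p in each list, the genes the study names and the cell type markers. Other members were named after their values were seen. Alternatives were DESeq2 1.42.0, its size factors, library size alone, other filters, thresholds and sets of libraries, a block for the repeat number and leaving out each library. Day 7 and day 10 libraries entered no test above except the fit of all 22 libraries, which holds day 7.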

Additional observations from a re-analysis of the deposited data

Results flagged for a closer look

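The treatment effect differed between days 5 and 0 by the interaction test for 1245 genes in the higher and 1497 in the lower direction (edgeR, adjusted p under 0.01). Of the 172 named genes called at day 5, 158 were among them, beside 14.9% of all genes tested. They include CHI3L1 (adjusted p = 3.9e-17), RRM2 (3.9e-11) and DDB2 (1.9e-10), all from edgeR's quasi-likelihood test. The named genes were called on the same day 5 libraries that the interaction test uses, so their overlap is not separate support. CLK1 (adjusted p = 0.031) and INSIG1 (0.049) are examples of named genes called at day 5 whose difference from day 0 did not pass the threshold (edgeR).

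In libraries outside the tests at day 5, the mean log2 CPM of the genes called higher less that of the genes called lower was compared between LLY-283 and vehicle. The difference was 0.58 between the day 7 libraries labelled repeat 1 and 0.273 between the day 10 libraries, above the range of -0.112 to 0.04 in the 9 pairs of day 0. Between the day 7 libraries labelled repeat 2 it was -0.422, against their labels. Each value is a difference between single libraries and was not tested.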

How the results depend on the processing

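The day 5 counts of 1987 higher and 2317 lower were within 1.5 times under DESeq2, both other scalings, both other filters, the fits of 12 and of 18 libraries, the replicate block and an adjusted p under 0.05. They became 789 and 1253 in the fit of all 22 libraries, and 915 and 222 at an adjusted p under 0.05 with an absolute log2 fold change above 0.5. Library size alone gave 2274 higher and 1840 lower. Leaving out each library gave 1405 to 1854 higher and 1712 to 2569 lower at day 5, 940 to 1272 and 1143 to 1728 in the interaction, and 0 to 17 genes at day 0. The 3 genes at day 0 became 56 without the filter. The replicate numbers do not pair the libraries, since same-numbered libraries had correlations of 0.0155, -0.0403 and 0.000447. With the replicate block 2014 genes were higher and 2387 lower at day 5 and 6 were called at day 0. By library size alone the mean difference of the genes called higher was 0.064, 0.142 and 0.347 on days 1, 2 and 3, and that of the genes called lower -0.199 on day 3. For the genes called higher by DESeq2 it was 0.309 at day 3. Protein-coding genes were 9.82% higher and 14.4% lower by DESeq2 and 15.7% and 13.9% by library size alone, and lncRNAs 2.45% and 0.5% by DESeq2. The causes were not tested. Of 172 named genes called at day 5 none changed sign, 168 were called with each library left out, and 60 lost the call in the fit of all 22 libraries. POSTN and MT-CO2 lost it with the replicate block. Medians of 4 of 55 lists changed sign in some alternative, those of p53 regulators, MAPK feedback genes, integrins and fibroblast markers.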
